A study of Mus musculus with 2 samples.

Results

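The 10 genes described here, Arntl, Clock, Npas2, Nr1d1, Nr1d2, Per1, Per2, Per3, Cry1 and Dbp, belong to the circadian clock and were taken by name from the 19059 genes of 2 single-cell count matrices of mouse liver. All 10 were in both matrices. Each was compared between the libraries in hepatocyte-like, macrophage-like, endothelial-like and stellate-like cells, to see whether a difference between the libraries was shared by these cell classes.

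The study asked how AEG-1 (the product of Mtdh) in macrophages acts in diet-induced steatohepatitis. One library came from liver labelled AEG-1DMAC, a myeloid cell-specific knockout in which Cre under the Lyz2 (LysM) promoter deletes floxed AEG-1, and the other from liver labelled AEG-1fl/fl, floxed littermates. Both strains were on a C57BL/6J background, both were fed a high-fat, high-sugar diet (HF/HSD) from 7 weeks of age for 20 weeks, and both livers were taken at 27 weeks. Lyz2 is active in neutrophils and monocytes as well as in macrophages. The sex of the mice behind each library, whether livers were pooled, and the time of day of collection were not given in the sources used here. With 1 library per label there is no replicate, so no test was possible and no p-value is given: genotype, mouse, time of collection and library preparation cannot be told apart. Intervals below are 95% intervals for counting error only.

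The clock is a transcriptional feedback loop that runs in nearly every cell. The proteins of Arntl (BMAL1) and Clock, or of Npas2 in place of Clock, pair and activate genes through E-box elements, among them the Per and Cry genes, Nr1d1, Nr1d2 and Dbp. PER and CRY proteins then repress that pair. The products of Nr1d1 and Nr1d2 (REV-ERB alpha and beta) repress Arntl, Npas2 and Clock through ROR elements (ROREs), where the ROR receptors activate. Dbp encodes an activator of D-box genes, together with Tef and Hlf, and Nfil3 encodes the repressor at the same element. In liver the RNA of Arntl and Npas2 peaks at the opposite phase of the day from that of Nr1d1, Dbp and the Per genes, and the clock times bile acid, lipid and glucose metabolism.

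After filtering, the library labelled AEG-1DMAC held 2571 cells and 79483780 counts and that labelled AEG-1fl/fl held 3508 cells and 90081981 counts, with medians of 12746 and 7682 counts per cell; 10 cell barcodes occurred in both. Cells were assigned by marker genes, which gave 1132 and 1148 hepatocyte-like, 368 and 847 macrophage-like, 260 and 353 endothelial-like, and 181 and 284 stellate-like cells, in this order of libraries. In hepatocyte-like cells the hepatocyte markers made up medians of 1477 and 1441 per 10000 counts, and the macrophage markers 4.86 and 3.62. The 4 Y-linked genes read were counted in both libraries, at 135 and 134 summed CPM in hepatocyte-like cells. A class is a range of marker shares: 192 and 151 hepatocyte-like cells, and 7 to 33 cells of each other class and library, lay within 25% of a limit. Mtdh was not lower in macrophage-like cells of the library labelled AEG-1DMAC: it measured 116 CPM (counts per 1000000 counts of the class) there against 28.7 CPM, a log2 ratio of 2.01 (1.78 to 2.25), and 61.6 against 57.9 CPM in hepatocyte-like cells. Where the Mtdh probes lie relative to the deleted part was not given in the sources used here, so this value may not check the deletion, and the libraries are called by their labels throughout.

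Promoter sequence shows which clock elements stand close to the members' start sites. RefSeq promoters (GRCm38.p6) were matched by symbol for 9 of the 10 members, and 250 bases upstream of each start were searched on both strands. Per2 had no entry. The E-box (CACGTG) was found upstream of Per1 and Cry1, against 6.86% of the 27025 genes with an entry. Its variant, the E'-box (CACGTT), was found upstream of Nr1d1 and Cry1 (4.50% of genes). The D-box (TTATGTAA) was found upstream of Per3, at 2 places (0.977% of genes). Neither TAGGTCA, the core of the RORE (2.55% of genes), nor TGGGTCA (3.73%) was found upstream of a member. A match is a description of the letters in this window and not evidence of binding. The windows below show the Per3 D-boxes, since Per3 was the member with the lowest ratio in each of the 4 classes, and the E-boxes of Per1, Cry1 and Nr1d1, whose ratios were smaller. Each is written 5′ to 3′ on the strand of the gene, with the element in capitals.
Per3 D-box, first base 205 bases upstream of the start, chr4:151044836-151044897, minus strand: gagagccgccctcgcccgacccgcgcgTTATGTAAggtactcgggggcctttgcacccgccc
Per3 D-box, first base 158 bases upstream, chr4:151044789-151044850, minus strand: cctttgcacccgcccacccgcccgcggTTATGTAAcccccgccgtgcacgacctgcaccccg
Per1 E-box, first base 166 bases upstream, chr11:69098756-69098815, plus strand: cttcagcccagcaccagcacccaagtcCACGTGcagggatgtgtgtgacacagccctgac
Cry1 E-box, first base 60 bases upstream, chr10:85185082-85185141, minus strand: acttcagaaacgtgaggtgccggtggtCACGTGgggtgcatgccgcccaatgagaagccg
Nr1d1 E'-box (reverse strand), first base 28 bases upstream, chr11:98775378-98775432, minus strand: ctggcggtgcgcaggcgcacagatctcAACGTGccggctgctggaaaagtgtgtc

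None of these windows overlapped an exon of the GENCODE annotation. The Per1 window lies upstream of a RefSeq start that is inside the GENCODE gene body given next. The gene bodies lie on GRCm38 at chr7:113207465-113314126 (Arntl, plus strand), chr5:76209868-76304792 (Clock, minus), chr1:39193731-39363236 (Npas2, plus), chr11:98767932-98775333 (Nr1d1, minus) and chr14:18204054-18239127 (Nr1d2, minus). Per1 lies at chr11:69095217-69109960 (plus), Per2 at chr1:91415982-91459324 (minus), Per3 at chr4:151003652-151044665 (minus), Cry1 at chr10:85131700-85185064 (minus) and Dbp at chr7:45705088-45710203 (plus).

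The ratio of Arntl and of Npas2 (library labelled AEG-1DMAC over AEG-1fl/fl) was above 0 in each of the 4 classes, though for Arntl in macrophage-like and Npas2 in endothelial-like cells the counting interval spanned 0. Per1, Per2, Per3, Nr1d2 and Dbp were lower in that library in each class, with every interval below 0. Clock, Nr1d1 and Cry1 were higher in some classes and lower in others, and no interval of Cry1 lay off 0. A gene was counted as past 2-fold when its CPM differed at least 2-fold between the libraries, among genes with at least 20 counts summed over both. In hepatocyte-like cells 2 of 10 members were past 2-fold higher (1.81% of all 12827 genes) and 1 past 2-fold lower (2.92%). In macrophage-like cells 1 of 10 was higher (2.0% of all genes) and 1 lower (4.03%), in endothelial-like cells 1 of 9 higher (2.23%) and 3 lower (4.67%), and in stellate-like cells 1 of 10 higher (1.56%) and 2 lower (5.60%). The median size of the members' log2 ratio, whatever its sign, was 0.66, 0.51, 0.74 and 0.75 in the order hepatocyte-like, macrophage-like, endothelial-like and stellate-like, against 0.18, 0.27, 0.35 and 0.32 over all genes tested. These counts describe 1 library against another.

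**Figure D1:**
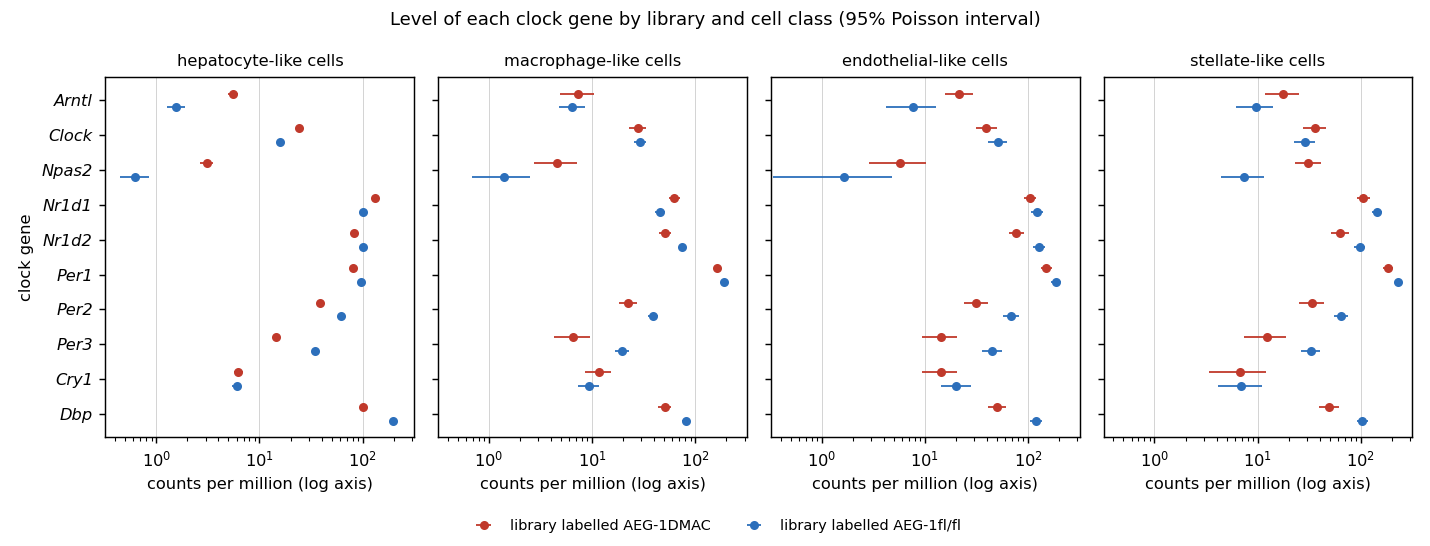
Level of each clock gene in CPM (log axis) in the library labelled AEG-1DMAC (red) and AEG-1fl/fl (blue), by cell class, with 95% Poisson intervals. The red points of Arntl and Npas2 lie to the right of the blue ones in each panel and those of Per2, Per3 and Dbp to the left.

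Among the activators, Arntl encodes the partner without which the loop stops. Its level in hepatocyte-like cells was 5.56 CPM (4.97 to 6.19; 327 counts) in the library labelled AEG-1DMAC and 1.55 CPM (1.26 to 1.89; 97 counts) in that labelled AEG-1fl/fl, 3.58-fold higher, a log2 ratio of 1.84 (1.51 to 2.18). Only 43 of 12827 genes had a higher ratio there. Endothelial-like cells gave 21.6 and 7.64 CPM, a log2 ratio of 1.50 (0.59 to 2.49), and stellate-like cells 17.7 and 9.65 CPM, a log2 ratio of 0.88 (0.05 to 1.71). In these 3 classes the counting interval of the ratio lay above 0. Macrophage-like cells gave 7.22 and 6.42 CPM, and their log2 ratio, 0.17, had an interval that spans 0 (−0.53 to 0.85). The ratio of Arntl in macrophage-like cells was lower than that in hepatocyte-like cells by a log2 difference of −1.67 (−2.45 to −0.90).

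Npas2, which encodes a paralog of CLOCK, showed the highest ratio of the 10 members in each of the 4 classes. In hepatocyte-like cells it measured 3.08 CPM (2.64 to 3.56; 181 counts) against 0.62 CPM (0.44 to 0.85; 39 counts), a log2 ratio of 2.30 (1.80 to 2.84), and only 19 of 12827 genes had a higher one. Stellate-like cells held it at 31.1 CPM (51 counts) against 7.33 CPM (19 counts), a log2 ratio of 2.09 (1.30 to 2.93), with only 12 of 11108 genes higher. Thus its level in stellate-like cells was above that in hepatocyte-like cells in both libraries, and the difference between the libraries was of like size in both classes (stellate-like minus hepatocyte-like −0.22, −1.18 to 0.79). Macrophage-like cells gave 4.57 and 1.38 CPM from 19 and 11 counts, a log2 ratio of 1.72 (0.58 to 2.94). With a stricter gate or with clusters in place of the gate these cells held fewer than 20 counts of Npas2, at log2 ratios of 1.21 and 1.72. Endothelial-like cells held only 11 and 3 counts, under the minimum, and their log2 ratio of 1.82 (−0.10 to 4.30) does not set the libraries apart.

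Clock, which encodes the activator present at nearly constant level through the day, differed less. Hepatocyte-like cells held 24.4 CPM against 15.8 CPM, and their log2 ratio was 0.62 (0.50 to 0.74). In the nonparenchymal classes every interval spanned 0: 27.7 and 29.3 CPM in macrophage-like cells (log2 ratio −0.08, −0.42 to 0.24), 39.5 and 50.7 CPM in endothelial-like cells (−0.36, −0.82 to 0.09) and 36.0 and 28.6 CPM in stellate-like cells (0.33, −0.18 to 0.85). The difference from hepatocyte-like cells was −0.71 (−1.06 to −0.36) for macrophage-like and −0.98 (−1.46 to −0.51) for endothelial-like cells.

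**Figure D2:**
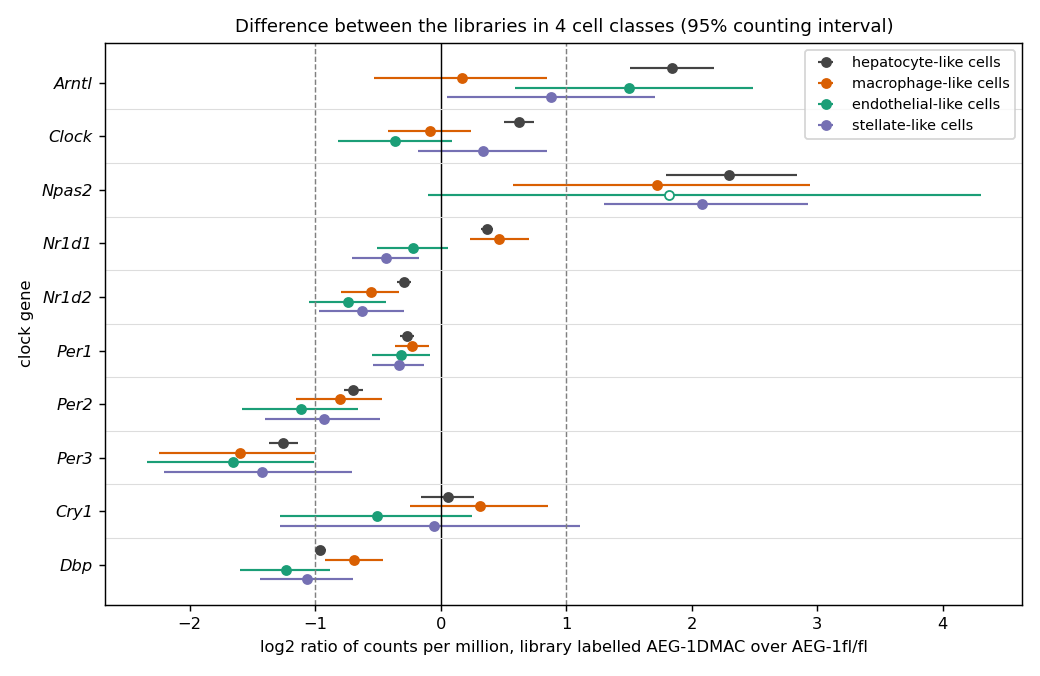
log2 ratio of CPM (library labelled AEG-1DMAC over AEG-1fl/fl) of each clock gene in 4 cell classes, with 95% counting intervals; dashed lines mark a 2-fold difference, and the open point has fewer than 20 counts. Npas2 lies at 1.72 to 2.30 and Per3 at −1.65 to −1.25 across classes, while Nr1d1 lies on both sides of 0.

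Of the repressor genes, the 3 Per genes were lower, in the order Per3, Per2, Per1 in each of the 4 classes, and Cry1 was not. Per3 encodes a PERIOD protein that is dispensable for the core rhythm. In hepatocyte-like cells it measured 14.5 CPM (13.6 to 15.5) against 34.6 CPM (33.1 to 36.1), a log2 ratio of −1.25 (−1.37 to −1.14). The log2 ratio was −1.60 (−2.24 to −1.0) in macrophage-like cells, from 6.50 and 19.6 CPM, −1.65 (−2.34 to −1.01) in endothelial-like cells, from 14.2 and 44.7 CPM, and −1.43 (−2.21 to −0.71) in stellate-like cells, from 12.2 and 32.8 CPM. No class differed from hepatocyte-like cells beyond its counting interval. Per3 was past 2-fold lower in each class, and the only member that was.

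Per2 encodes a PERIOD protein of the core repressor complex. It measured 38.5 against 62.3 CPM in hepatocyte-like cells, a log2 ratio of −0.70 (−0.77 to −0.62). In endothelial-like cells the levels were 31.6 and 68.2 CPM, and the log2 ratio was −1.11 (−1.58 to −0.65), or −0.91 relative to the median gene of the class, inside the 2-fold limit. Macrophage-like cells (22.4 and 39.0 CPM) gave −0.80 (−1.15 to −0.46) and stellate-like cells (33.6 and 64.1 CPM) −0.93 (−1.40 to −0.48). The libraries were thus apart beyond counting error in each class.

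Per1, a PERIOD gene that glucocorticoids and other acute signals also induce, differed least of these genes and most evenly. The log2 ratio was −0.27 (−0.32 to −0.21) in hepatocyte-like cells, from 80.8 and 97.1 CPM, and −0.23, −0.31 and −0.33 in macrophage-like (162 and 190 CPM), endothelial-like (151 and 187 CPM) and stellate-like cells (184 and 232 CPM), with every interval below 0. The median of all genes was itself shifted by −0.10, −0.20 and −0.14 in these last 3 classes and by 0.01 in hepatocyte-like cells. Relative to that median Per1 stood at −0.12, −0.11 and −0.19. Per1 in the nonparenchymal classes was therefore close to the median gene of its class, whereas Per3 and Per2 were not.

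Cry1, which encodes the strongest repressor of the loop, did not differ beyond counting error in any class. Hepatocyte-like cells held 6.25 CPM (5.63 to 6.93) and 6.02 CPM (5.42 to 6.66), a log2 ratio of 0.06 (−0.16 to 0.27). The other log2 ratios were 0.31 (−0.24 to 0.85), −0.51 (−1.28 to 0.25) and −0.05 (−1.28 to 1.11) in macrophage-like, endothelial-like and stellate-like cells. The last rests on 11 and 18 counts, and its interval spans a 2-fold difference in either direction.

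The paired REV-ERB genes parted in hepatocyte-like cells and were both lower in stellate-like cells. Nr1d2 was lower in the library labelled AEG-1DMAC, at 83.2 against 102 CPM in hepatocyte-like cells, a log2 ratio of −0.29 (−0.35 to −0.24). Macrophage-like cells gave −0.56 (−0.79 to −0.33), endothelial-like cells −0.74 (−1.05 to −0.43) and stellate-like cells −0.63 (−0.97 to −0.29). Nr1d1 was higher in hepatocyte-like cells, at 132 CPM (129 to 135) against 102 CPM (99.4 to 104), a log2 ratio of 0.37 (0.32 to 0.42), and in macrophage-like cells, at 62.8 against 45.4 CPM, a log2 ratio of 0.47 (0.23 to 0.70). In stellate-like cells Nr1d1 was lower, at 106 CPM against 144 CPM, a log2 ratio of −0.44 (−0.71 to −0.18), and in endothelial-like cells it was at 105 and 122 CPM, a log2 ratio of −0.22 (−0.50 to 0.06). Stellate-like cells lay below hepatocyte-like cells in this ratio by −0.81 (−1.08 to −0.54) and endothelial-like cells by −0.59 (−0.88 to −0.31).

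Dbp, the output gene of the loop and an activator of D-box genes, was lower in each class. Hepatocyte-like cells held 101 CPM (98.4 to 104) against 196 CPM (193 to 200), 5938 and 12255 counts, a log2 ratio of −0.96 (−1.0 to −0.91), just inside the 2-fold limit and past it, at −1.10, with a stricter gate. It was past 2-fold lower in endothelial-like cells, at 50.6 against 119 CPM (log2 ratio −1.23, −1.60 to −0.88), and in stellate-like cells, at 49.4 against 103 CPM (−1.06, −1.44 to −0.70), the latter at −0.93 relative to the median gene of the class. Macrophage-like cells gave 50.3 and 80.9 CPM, −0.69 (−0.92 to −0.46). Set against Arntl within a library, the Dbp count was 18.2 times that of Arntl in hepatocyte-like cells labelled AEG-1DMAC and 126 times in those labelled AEG-1fl/fl, a 6.96-fold difference (5.52 to 8.84) that does not depend on how the libraries are scaled. The same difference was 6.65-fold (3.35 to 13.8) in endothelial-like, 3.84-fold (2.04 to 7.23) in stellate-like and 1.81-fold (1.08 to 2.98) in macrophage-like cells. In these 3 classes of the library labelled AEG-1DMAC, hepatocyte RNA would give 113%, 131% and 116% of the Dbp counts. It would give 14.6%, 20.2% and 44.5% of the Arntl counts, so the pair there is not a measure of the class alone. Dbp over Arntl also joins a lower and a higher member, so its direction is no separate evidence. For Per3 against Npas2 the difference was 11.7-fold (8.18 to 17.2) in hepatocyte-like and 9.98-fold (3.95 to 25.7) in macrophage-like cells. It was 11.1-fold (2.62 to 65.2) in endothelial-like and 11.4-fold (5.26 to 25.0) in stellate-like cells. This pair joins the members with the lowest and the highest ratio in each class. Its large values therefore follow from that choice and are no separate evidence of a shared difference. In endothelial-like cells it rests on 11 and 3 counts of Npas2, under the minimum.

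Hepatocyte RNA moved with the labels in the 3 nonparenchymal classes. Scaled to the 12 hepatocyte markers, it made up 57.8% of macrophage-like counts in the library labelled AEG-1DMAC and 40.4% in that labelled AEG-1fl/fl, with 56.7% and 39.0% in endothelial-like and 64.3% and 48.0% in stellate-like cells. At that share, the hepatocyte profile of the same library would give 116% and 97.9% of the Dbp counts seen in macrophage-like cells, 121% and 90.6% of the Nr1d1 counts, 99.5% and 64.5% of Per2 and 129% and 71.1% of Per3. Nr1d2 counts in macrophage-like cells were close to that level as well, at 94.8% and 55.1%. The values of Dbp, Nr1d1, Per2, Per3 and Nr1d2 in macrophage-like cells are therefore not separate from those of hepatocytes in the library labelled AEG-1DMAC. Dbp was in the same position in stellate-like cells, at 131% and 91.0%, and in endothelial-like cells, at 113% and 64.2%. Other values stood well above the hepatocyte level. Only 6.35% and 4.09% of Npas2 in stellate-like cells, 14.6% and 7.92% of Arntl in endothelial-like cells, 20.2% and 7.72% of Arntl in stellate-like cells and 20.1% to 30.4% of Per1 in the 3 classes would come from it.

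**Figure D3:**
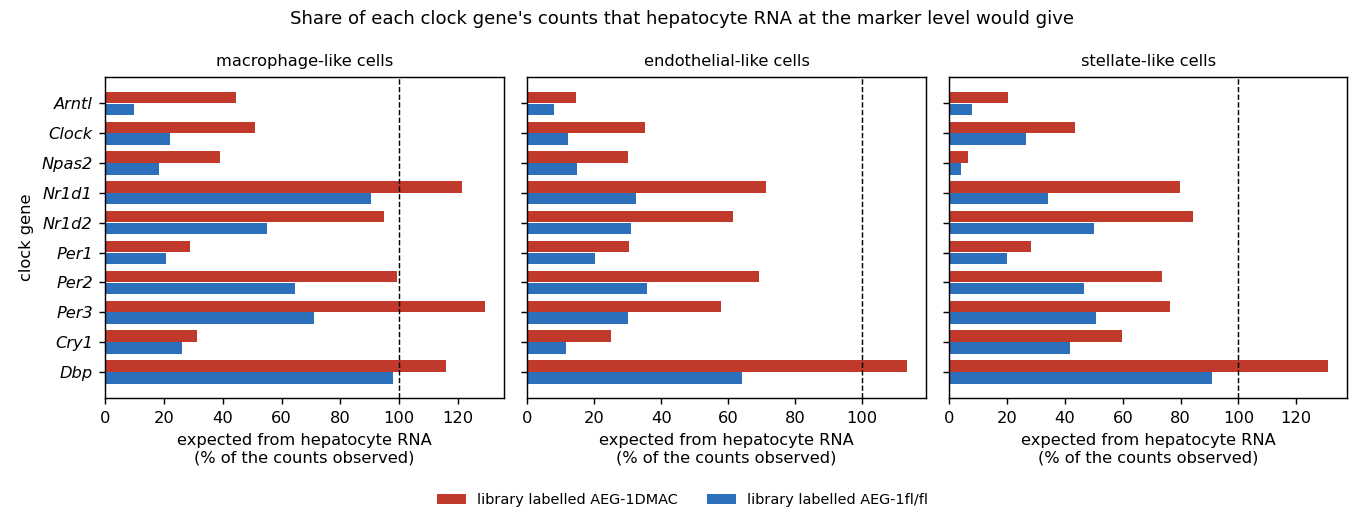
Counts of each clock gene that hepatocyte RNA, scaled to hepatocyte markers, would give, as a percentage of the counts observed in macrophage-like, endothelial-like and stellate-like cells (red, library labelled AEG-1DMAC; blue, AEG-1fl/fl). Bars at or past the dashed line at 100% (Dbp, Nr1d1 and Per3 in macrophage-like, Dbp in endothelial-like and stellate-like cells) leave no counts of the class's own, while Npas2 in stellate-like cells is at 6.35% and 4.09%.

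With the hepatocyte profile subtracted, 23 of the 30 nonparenchymal values could be given. The log2 ratio was then 2.57 for Npas2 and 1.18 for Arntl in stellate-like cells and 1.87 for Arntl in endothelial-like cells. Per3 was at −1.91 and −1.98 in endothelial-like and stellate-like cells and Per2 at −1.69 and −1.43. Nr1d1 was at −0.98 and −1.63 there and Nr1d2 at −1.10 and −1.78, with −3.20 in macrophage-like cells, where about 11 counts were left in the library labelled AEG-1DMAC. Per1 was at 0.08, −0.03 and 0.03 in macrophage-like, endothelial-like and stellate-like cells, and Arntl in macrophage-like cells at −0.06. In endothelial-like and stellate-like cells the Arntl, Per2, Per3 and Nr1d2 log2 ratios were further from 0 without the hepatocyte share, and that of Per1 was not. Subtraction took a larger share from the library labelled AEG-1DMAC, from its class totals as well. Arntl counts went from 41 and 14 to 35.0 and 12.9 in endothelial-like cells. In stellate-like cells they went from 29 and 25 to 23.1 and 23.1. The higher Arntl ratios after subtraction thus came from the smaller totals. Such shifts follow in part from the procedure and are no separate evidence of a difference. Few counts were left in the library labelled AEG-1DMAC in these classes: 11.4 and 4.7 of Per3, 18.5 and 14.5 of Per2, and 56.3 and 16.4 of Nr1d2. The same share gave 113% and 131% of the Dbp counts of that library, more than were seen. No intervals were computed for the subtracted ratios, so their size is uncertain.

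Within hepatocyte-like cells the pattern was present in both zones of the lobule. Cells with more pericentral markers numbered 507 and 387 and those with more periportal markers 404 and 500. Arntl had a log2 ratio of 1.93 (1.31 to 2.60) in pericentral-marker cells and 1.81 (1.32 to 2.33) in periportal-marker cells. Npas2 gave 1.87 (1.09 to 2.72) and 2.56 (1.74 to 3.47). Both activators were therefore higher in either zone, with overlapping intervals. Per3 was lower by −1.07 (−1.25 to −0.89) in pericentral-marker and −1.73 (−1.94 to −1.53) in periportal-marker cells, where it measured 10.4 CPM against 16.3 CPM pericentrally in the library labelled AEG-1DMAC, with 34.5 and 34.3 CPM in the other library. Dbp gave −0.87 (−0.94 to −0.80) and −1.20 (−1.28 to −1.13). The intervals of Per3 and of Dbp did not overlap between zones. Nor did those of Clock (0.62 to 1.04 pericentral, 0.22 to 0.58 periportal) and Nr1d2 (−0.36 to −0.18 and −0.56 to −0.38). The zone cut was set on both libraries together. Their hepatocyte-like cells held pericentral markers at medians of 44.9 and 23.2 per 10000, so cells of a zone may not be matched between libraries. Depth moved with the values. In cells below the median count of their library, Npas2 was at 1.34 (0.14 to 2.70) and Arntl at 1.46 (0.60 to 2.40), against 2.47 and 1.89 in the deeper cells. Nr1d2 was at 0.03 (−0.13 to 0.18), Per1 at −0.05 (−0.19 to 0.10) and Dbp at −0.53 (−0.65 to −0.41), against −0.35, −0.32 and −1.04 in the deeper ones. Its part in these results was not tested. No single cell set these values in hepatocyte-like cells, where the cell with most counts of a member held at most 5.13% of them, and in the other classes at most 15% for members with 20 or more counts in that library.

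**Figure D4:**
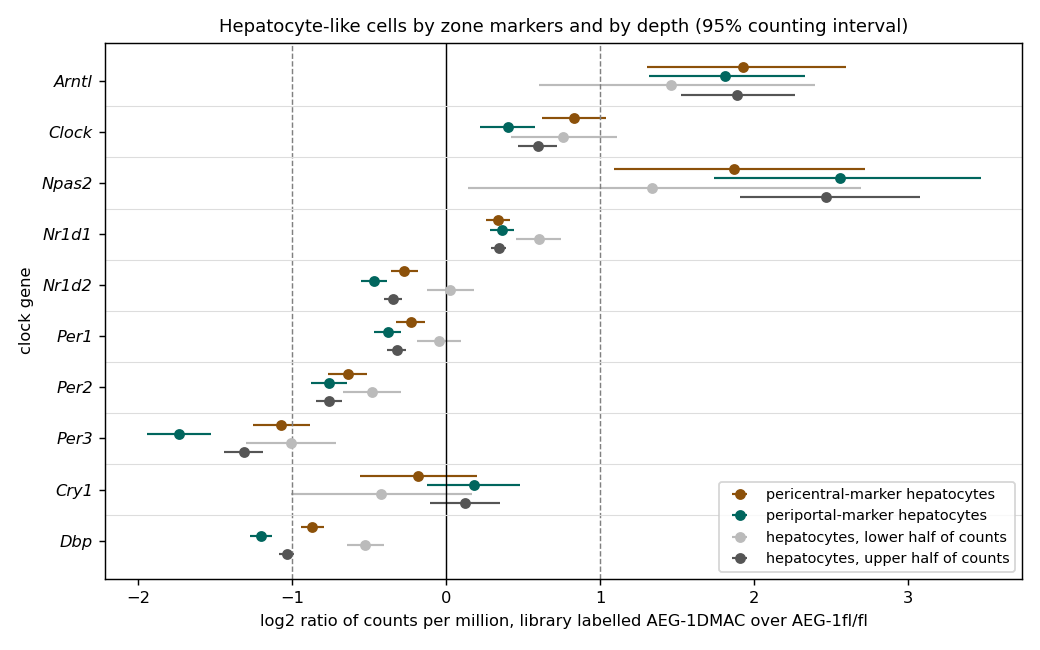
log2 ratio of CPM of each clock gene in hepatocyte-like cells, split by zone markers (brown, pericentral; green, periportal) and at the library's median count per cell (light and dark grey), with 95% counting intervals. Arntl and Npas2 stay right of 0 and Per2, Per3 and Dbp left of 0 in each part, and Per3 lies lower in periportal-marker than in pericentral-marker cells.

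Smaller classes and cells assigned to no class carried the members too. Ungated cells, 524 and 601 in number, gave log2 ratios of 1.16 for Arntl, 1.64 for Npas2, −1.01 for Per3, −0.73 for Per2 and −0.48 for Dbp. In cholangiocyte-like cells (27 and 90) Npas2 had 12 and 13 counts and a log2 ratio of 1.77 (0.51 to 3.02), Per3 −1.17 (−2.28 to −0.22), Dbp −0.67 (−1.19 to −0.18), and Nr1d1 0.88 (0.42 to 1.32). These 4 had the direction seen in hepatocyte-like cells, whereas Per1 had the opposite one, at 0.45 (0.06 to 0.83) on 80 and 216 counts, and Arntl was at −0.02 on 4 and 15 counts. B cell-like cells held 0 counts of Per3 in the library labelled AEG-1DMAC, with an interval that reaches 29.1 CPM, and 15 counts, 39.8 CPM, in that labelled AEG-1fl/fl. In T and NK cell-like and neutrophil-like cells most members had under 20 counts. Nr1d2 in T and NK cell-like cells had 3 and 26 counts and a log2 ratio of −1.77 (−4.14 to −0.06).

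In hepatocyte-like cells the other transcription factors of the clock were less far apart than Arntl, Npas2 or Per3. None of 9 was past 2-fold there. As 1.81% of all genes were past it higher and 2.92% lower, a count of none is close to the share over all genes. The counting interval of 2 lay above 0 (28.9% of all genes of this class) and of 5 below (26.4%). These last shares show how small a ratio clears counting error at this depth. Tef, the D-box activator related to Dbp, had a log2 ratio of −0.58 (−0.63 to −0.53) in hepatocyte-like, −0.50 in macrophage-like, −1.03 in endothelial-like and −0.95 in stellate-like cells. Nfil3, the D-box repressor, was at 0.45 (0.35 to 0.54) in hepatocyte-like, 0.55 in macrophage-like and 1.57 (0.70 to 2.51) in endothelial-like cells, and at −0.02 in stellate-like cells. Hlf, the third D-box activator, was at −0.15 (−0.21 to −0.10) in hepatocyte-like and 0.32 (0.03 to 0.61) in macrophage-like cells, and its interval spanned 0 in endothelial-like (0.02) and stellate-like cells (−0.22). Its ratio was not lower outside hepatocyte-like cells, unlike those of Dbp and Tef. Hlf measured 77.4 and 86.0 CPM in hepatocyte-like cells and 40.2 and 32.2 CPM in macrophage-like cells. In the latter hepatocyte RNA made up 57.8% and 40.4% of counts. The part of hepatocyte RNA in the Hlf values was not tested. Rora, which encodes an activator at ROREs, was at 0.30 (0.24 to 0.36), 0.47, 0.44 and 0.30. Ciart, which encodes a repressor of the BMAL1 and CLOCK pair, was at −0.42 (−0.56 to −0.27) in hepatocyte-like cells and had under 20 counts in stellate-like cells.

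Genes that modify or degrade clock proteins were close to even in hepatocyte-like cells. In endothelial-like cells their median log2 ratio was −0.34 against −0.20 over all genes, about as far from the median gene as in hepatocyte-like cells. Of 6 kinases and ubiquitin ligase adaptors, none was past 2-fold in hepatocyte-like cells (1.81% of all genes higher, 2.92% lower). The median log2 ratio there was 0.16, against 0.01 over all genes. Csnk1d, a kinase of PER proteins, was at 0.15 (0.08 to 0.21), Btrc, which targets PER proteins, at −0.11, and Fbxl21 at 0.37 on 107 and 88 counts.

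Rhythmic liver output genes were mostly lower in hepatocyte-like cells but not in endothelial-like cells. In the former 4 of 14 were past 2-fold lower (2.92% of all genes) and 1 higher (1.81%). The intervals of 11 lay below 0 (26.4% of all genes), and the median log2 ratio was −0.58, against 0.01 over all genes. Usp2, a clock-driven deubiquitinase gene, was at 16.1 against 59.1 CPM, a log2 ratio of −1.88 (−1.98 to −1.78), with −1.10, −0.95 and −1.03 in macrophage-like, endothelial-like and stellate-like cells. Cyp7a1, the rate-limiting enzyme of bile acid synthesis, was at 111 against 270 CPM, −1.29 (−1.33 to −1.25), and at 0.37 (−0.09 to 0.83) in endothelial-like cells. There the median of the list was 0.04, with 2 of 14 past 2-fold higher (2.23% of all genes) and 0 lower (4.67%). Hepatocyte RNA made up 56.7% and 39.0% of the counts of endothelial-like cells. Its part in their Cyp7a1 value and list median was not tested, so these may not be values of endothelial cells. In hepatocyte-like cells Elovl3, a fatty acid elongase gene, went the other way, at 88.6 against 31.3 CPM, 1.50 (1.42 to 1.58). Mfsd2a, a lysophospholipid transporter gene, was at 0.57 (0.53 to 0.61) there. In the 3 nonparenchymal classes Elovl3 gave 2.13, 2.92 and 1.86 and Mfsd2a 0.63, 1.39 and 1.09, beside the higher hepatocyte RNA share given above.

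**Figure D5:**
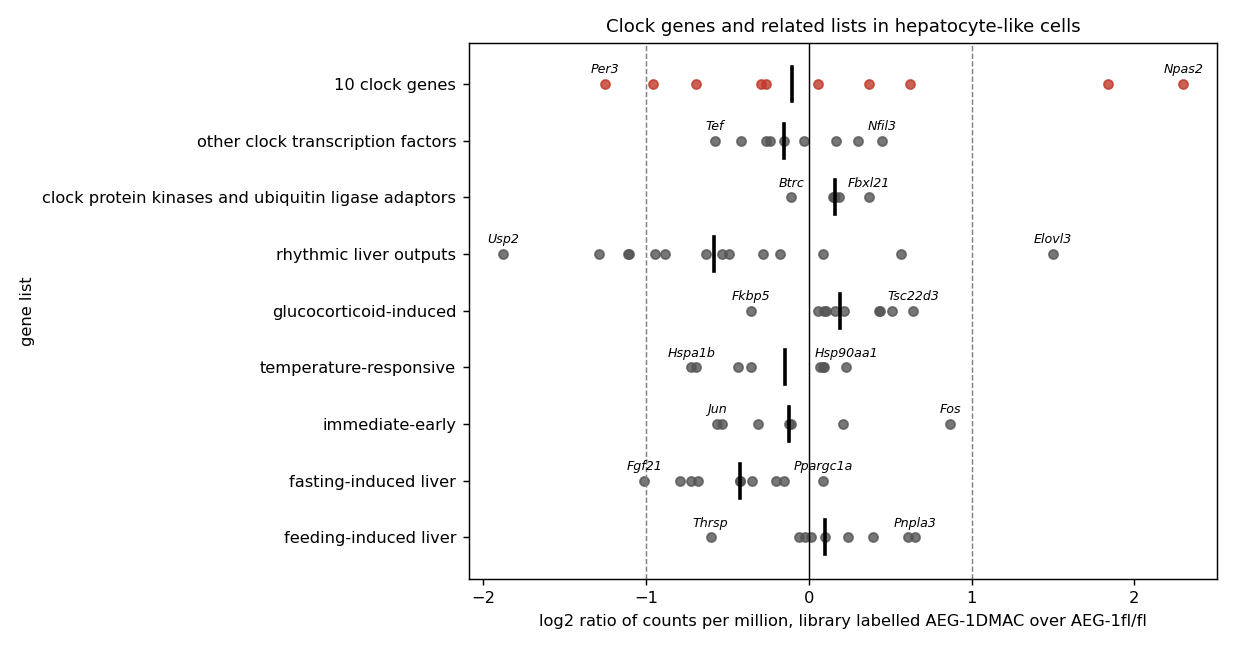
log2 ratio of CPM (library labelled AEG-1DMAC over AEG-1fl/fl) in hepatocyte-like cells for the clock genes (red) and for related lists (grey), 1 point per gene with at least 20 counts; black bars are list medians, dashed lines mark a 2-fold difference, and the lowest and highest gene of each list are named. The clock genes run from −1.25 to 2.30 and the rhythmic outputs from −1.88 to 1.50, while the other lists stay between −1.01 and 0.87.

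Lists of other signals that act on clock genes were measured beside them. Of 10 glucocorticoid-induced genes none was past 2-fold in hepatocyte-like cells, where 1.81% of all genes were higher and 2.92% lower. These shares also stand beside the temperature-responsive and immediate-early lists, and a count of none is close to them. Of the glucocorticoid-induced genes 8 intervals lay above 0, against 28.9% of all genes, and the median was 0.19. Tsc22d3 was at 0.64 and Dusp1 at 0.51, Cebpd at 0.06, and Fkbp5, which encodes a glucocorticoid receptor co-chaperone, at −0.36 in hepatocyte-like and −0.28, −0.47 and −0.44 in the other classes. Of 8 temperature-responsive genes none was past 2-fold there (Hsp90aa1 0.23, Dnajb1 0.10, Hspa1a −0.69, Hspa1b −0.72), nor was any of 7 immediate-early genes (Fos 0.87, Fosb 0.21, Egr1 −0.53, Jun −0.56). In macrophage-like cells 2 of the 8 temperature-responsive genes were past 2-fold higher (2.0% of all genes). These were Hspa1a (2.52) and Hspa1b (1.25), near-identical paralogs whose counts may not be separable. Neither list held a gene as far apart in hepatocyte-like cells as Arntl, Npas2 or Per3.

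Feeding and fasting genes were read because food sets the liver clock. Of 10 fasting-induced genes 9 had an interval below 0 in hepatocyte-like cells, against 26.4% of all genes, with a median log2 ratio of −0.42. Fgf21, a fasting hormone gene, was past 2-fold lower at −1.01 (−1.10 to −0.92), Pdk4 was at −0.79, Igfbp1 at −0.15 and Ppargc1a at 0.09. Among 9 feeding-induced genes 6 intervals lay above 0 (28.9% of all genes) and 2 below (26.4%), with a median of 0.10. Pnpla3 was at 0.65, whereas Thrsp was at −0.60 and Srebf1 at −0.06. The fasting genes were thus mostly lower and the feeding genes mixed, and the part of feeding state in the clock values was not tested.

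The genes most like the members in their ratios over the 4 classes were found by Euclidean distance among 8473 genes. Arntl, the member with the highest median ratio that had at least 20 counts in each class, was nearest to Bcl6, which encodes a transcriptional repressor (distance 0.64), with log2 ratios of 2.12, −0.12, 1.85 and 0.52 in hepatocyte-like, macrophage-like, endothelial-like and stellate-like cells. Camk1d (0.98) and Gadd45g (1.06) followed. Per3, the member with the lowest median, was nearest to Col1a1, a collagen gene (0.54; −0.80, −1.70, −1.91 and −1.56), Mmp12 (0.60) and Unc5b (0.67). None of the 6 was on the lists above.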

How the data were processed

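Fixed cells from flash-frozen liver, dissociated with Liberase TL, were hybridised to 10x mouse transcriptome probes. Per the labels, the authors ran Cell Ranger 7.1.0 (mm10) and Seurat, and deposited matrices of raw counts per gene and cell. Barcodes under 100 genes or over 10% mitochondrial counts were dropped here. A cell was gated by its share of marker counts per 10000 (minimum 50 for macrophage, 30 for endothelial and stellate, 600 for hepatocyte markers). A nonparenchymal class needed at least 3 markers detected and 2 times the next nonparenchymal class, shares being scaled to their minimum. Hepatocyte markers were not part of that margin, so a cell rich in them could still pass as nonparenchymal. Macrophage-like cells of the library labelled AEG-1DMAC held a median hepatocyte marker share of 712 per 10000. No doublet caller was run, and cells with markers of 2 nonparenchymal classes inside that margin stayed ungated. Gate limits were set after marker shares were seen. Counts were summed per library and class and given as CPM of the class total, with exact Poisson intervals and, for ratios, Clopper-Pearson intervals given the summed counts. Probe counts are not comparable between genes. From each further list, the 2 highest and 2 lowest ratios in hepatocyte-like cells were named, except 2 genes that are not reported here; all 10 members were. The members and lists were chosen with earlier results of these data known. The ratio code was tested on simulated data. Python 3.11.15, NumPy 2.4.6, SciPy 1.17.1, pandas 2.3.3 and scanpy 1.11.5 were used. Alternatives covered scaling, count minimum, gate, clustering, cell filter, hepatocyte RNA and weighting of cells.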

Additional observations from a re-analysis of the deposited data

Results flagged for a closer look

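Among the named genes, the 7 given below differed in direction between cell classes, with counting intervals on opposite sides of 0. Hlf did so too, at −0.15 in hepatocyte-like and 0.32 in macrophage-like cells, where the part of hepatocyte RNA was not tested. So did Per1, at −0.27 in hepatocyte-like and 0.45 in cholangiocyte-like cells. With 1 library per label these differences were not tested.

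Among the clock genes, Nr1d1 had a log2 ratio (library labelled AEG-1DMAC over AEG-1fl/fl) of 0.37 in hepatocyte-like and 0.47 in macrophage-like cells and −0.44 in stellate-like cells. The macrophage-like value lies at the level that hepatocyte RNA would give (121% and 90.6% of the counts).

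Cebpd was at 0.23 in macrophage-like and −0.26 in stellate-like cells. Hspa1b was at 1.25 in macrophage-like and 0.96 in stellate-like cells and −0.72 in hepatocyte-like cells. Hspa1a was at 2.52 in macrophage-like cells, on 57 and 19 counts, and −0.69 in hepatocyte-like cells; these paralogs are near-identical, so that their counts may not be separable. Fos was at 0.87 in hepatocyte-like and −0.72 in macrophage-like cells. Igfbp1 was at 0.59 in macrophage-like cells and at −0.15, −0.65 and −0.35 in hepatocyte-like, endothelial-like and stellate-like cells. It measured 463 and 514 CPM in hepatocyte-like cells and 183 and 121 CPM in macrophage-like cells. In the latter hepatocyte RNA made up 57.8% and 40.4% of counts, and its part in the Igfbp1 value was not tested. Pnpla3 was at 0.65 in hepatocyte-like and −1.34 in stellate-like cells, the latter on 7 and 28 counts.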

How the results depend on the processing

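Of the members past 2-fold in hepatocyte-like cells, the 2 higher stayed 2 under each alternative, and the 1 lower became 2 with a stricter gate. In macrophage-like cells the 1 higher became 0 with a minimum of 50 counts, the stricter gate or clusters in place of the gate. The 1 lower, Per3, had no counts left in the library labelled AEG-1DMAC after subtraction of the hepatocyte profile. The count of lower members then became 2 without Per3. Few Nr1d2 counts and almost no Per2 counts were left in that library, so this rise is no stronger result. In endothelial-like cells the 1 higher became 2 with no count minimum, which lets Npas2 in, and the 3 lower became 2 under median-of-ratios and TMM scaling, which put Per2 at −0.91 and −0.90. In stellate-like cells the 1 higher became 2 under median-of-ratios and TMM scaling, with clusters and after subtraction, and the 2 lower became 1 under both scalings, 4 after subtraction and 3 with clusters. No log2 ratio past 2-fold changed sign under these alternatives. Over alternatives, Per3 ranged from −1.73 to −1.01 and Npas2 from 1.34 to 2.56 in hepatocyte-like cells. Sign changes occurred for Cry1, for Clock in macrophage-like and stellate-like cells, for Per1 in macrophage-like and stellate-like cells, for Arntl in macrophage-like cells and for Nr1d2 in shallower hepatocyte-like cells; their cause was not tested. No paired analysis was possible because there is 1 library per label. Depth limits Npas2, Cry1 and Arntl outside hepatocyte-like cells.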
